A study of Mus musculus with 6 samples.

Results

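The mouse genome carries 6 genes for conventional actins, *Actc1*, *Acta1*, *Acta2*, *Actg2*, *Actb* and *Actg1*, and all 6 were taken from the 54532 genes of the count table by their names in the GENCODE M21 annotation, without regard to their values. Each lies on a different chromosome of GRCm38, all on the minus strand. *Actc1* (ENSMUSG00000068614) spans chr2:114047282-114053548, *Acta1* (ENSMUSG00000031972) chr8:123891769-123894751 and *Acta2* (ENSMUSG00000035783) chr19:34241090-34255590. *Actg2* (ENSMUSG00000059430) spans chr6:83512905-83536265, *Actb* (ENSMUSG00000029580) chr5:142903115-142906754 and *Actg1* (ENSMUSG00000062825) chr11:120345690-120348542.

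The genes were measured by RNA-seq of poly-A RNA from nuclei of cardiomyocytes (CMs), pulled down with an antibody to PCM-1, a protein that surrounds the nucleus of CMs. Every mouse was a wild-type ICR pup that received 1e+11 viral genomes of AAV9 under the skin at 6 d of age, controls included, and hearts were taken at 9 d. The virus carried GFP, YAP5SA or YAP6SA behind the cardiac troponin T (cTnT) promoter, which limits the transgene to CMs. YAP5SA is a YAP with its LATS phosphorylation sites changed from serine to alanine, and YAP6SA has 1 further serine-to-alanine change that disrupts binding to TEAD transcription factors. The 3 groups had 2 libraries apiece, and replicate 1 of every group belongs to batch 1 and replicate 2 to batch 2. Where 2 values are given for a group, batch 1 comes before batch 2. The labels do not tie a library to a single animal, so the p-values measure the spread between these libraries, which may be partly technical.

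Actins are the subunits of the thin filaments of muscle and of the microfilaments of all cells. Cardiac alpha-actin (*Actc1*) and skeletal alpha-actin (*Acta1*) form the sarcomeric thin filaments of striated muscle, aortic smooth muscle alpha-actin (*Acta2*) and enteric smooth muscle gamma-actin (*Actg2*) serve smooth muscle, and beta-actin (*Actb*) and cytoplasmic gamma-actin (*Actg1*) build the cytoskeleton. Embryonic CMs express *Acta2* and *Acta1* beside *Actc1*, and the mature mouse heart relies mainly on *Actc1*. Several actin genes are classical targets of the serum response factor, SRF, which binds the CArG box.

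The proteins are nearly the same, and the genes are told apart by mostly silent changes in their coding sequence. The following are the opening 60 coding bases of each gene, all within the coding exon that holds the start codon, from the GENCODE M21 transcripts (GRCm38, minus strand), with capitals where an aligned base differs from *Actc1*. They are shown because the assignment of reads to members rests on such differences.
Actc1, chr2:114051972-114052031: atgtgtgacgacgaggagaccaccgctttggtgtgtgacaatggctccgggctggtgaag
Acta1, chr8:123893638-123893697: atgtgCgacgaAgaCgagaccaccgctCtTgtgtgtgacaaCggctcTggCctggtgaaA
Acta2, chr19:34252494-34252553: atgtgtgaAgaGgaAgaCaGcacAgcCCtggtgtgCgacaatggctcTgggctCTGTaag
Actg2, chr6:83527382-83527441: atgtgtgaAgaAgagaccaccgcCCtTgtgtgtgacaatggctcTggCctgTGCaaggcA
Actb, chr5:142905627-142905686: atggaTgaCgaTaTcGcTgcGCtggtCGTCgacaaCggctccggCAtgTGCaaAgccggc
Actg1, chr11:120348032-120348091: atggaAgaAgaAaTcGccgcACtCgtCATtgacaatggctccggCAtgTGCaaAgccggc
Within this stretch *Acta1* differed from *Actc1* at 9 bases, *Acta2* at 14, *Actg2* at 11, *Actb* at 19 and *Actg1* at 17.

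Over the whole coding sequence, *Actc1* and *Acta1* were identical at 86.16% of bases and differed at 4 residues of the translated protein. *Acta2* and *Actg2* were 84.22% identical in coding bases and differed at 3 residues, and *Actb* and *Actg1* were 88.65% identical and differed at 4 residues. *Actc1* and *Actb* differed at 23 residues.

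How far a read can be assigned to 1 gene was uneven among the members. No 100-base stretch of the *Actc1*, *Acta1*, *Acta2* or *Actg2* transcript occurred in a transcript of another gene. In *Actb* 1.10% of the 100-base stretches did, and in *Actg1* 51.0% did, mostly in the pseudogenes *Gm12715* and *Gm8399*. A read that maps to several places is left out of the gene counts, so the *Actg1* counts may miss part of its reads, and 147 of its exonic bases are also shared with annotated small RNA genes. The read length is not given in the sources used here, and with 50-base stretches the shares were 56.7% for *Actg1*, 14.2% for *Actb*, 2.22% for *Acta1* and 0.353% for *Acta2*. Reads mapping to several places made up 2.90% and 3.07% of reads with GFP, 3.43% and 3.69% with YAP6SA, and 3.39% and 4.19% with YAP5SA. Their part in the *Actg1* values was not tested.

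The libraries held 14552847 to 19615627 counts on genes. CM markers were abundant in every library, with the 12 listed summing to 36397 to 73965 CPM (counts scaled to the TMM library size) and none at 0. The YAP5SA libraries held the lowest sums, 48695 and 36397 CPM. Of the 12 markers, 10 had a log2 fold change under 0 against GFP (median -0.41), where 6627 of the 13323 genes tested lay above 0. The calcium handling genes *Pln* (-1.04, quasi-likelihood FDR 0.00784) and *Ryr2* (-0.81, FDR 0.0455) were the 2 called lower, beside 9.18% of all genes tested. Fibroblast markers summed to 875 to 1815 CPM and endothelial markers to 466 to 691 CPM, and both sums were lower in batch 2 than in batch 1 within each group. All 9 fibroblast markers had a log2 fold change above 0 with YAP6SA (median 0.37), as did 6697 of the 13323 genes tested. Of these markers 0 passed by quasi-likelihood or DESeq2, and 4 had an unadjusted p under 0.05, beside 5.93% of all genes tested. The part of these shifts in the actin values was not tested. In bulk nuclei, fewer cells of a type and less RNA per cell cannot be told apart. Levels are given below as RPKM, the CPM per kb of merged exons, so that genes can be compared. Fold changes come from edgeR's quasi-likelihood fit of all 6 libraries with a batch term over 13323 genes, and FDR is the Benjamini-Hochberg adjusted p over those genes, with a threshold of 0.05.

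*Acta2* was the member called higher with both YAP variants, *Actb* was called higher with YAP5SA, and *Acta1* was called lower with YAP5SA than with YAP6SA. Without the batch as a block, the YAP6SA call of *Acta2* and the *Acta1* call did not pass (quasi-likelihood FDR 0.112 and 0.178). All 5 tested members lay higher in both YAP6SA libraries than in both GFP libraries, as did 17.3% of all genes tested. *Actc1* and *Actg1* passed the threshold in no comparison in the fit of all 6 libraries, and *Actg2* was too low to test. Of the actin reads, the share of *Actc1* was smaller and that of *Acta2* larger with either variant, and in YAP5SA OE CMs *Acta2* and *Actb* together took nearly as many reads as *Actc1* or more.

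In the GFP libraries the order of the levels was *Actc1*, *Actg1*, *Actb*, *Acta2*, *Acta1* and *Actg2*, and no neighbours in that order overlapped. The mean RPKM was 2123 ± 336 (SD, n = 2 here and below) for *Actc1*, 609 ± 22.0 for *Actg1* and 369 ± 65.3 for *Actb*. It was 94.2 ± 41.9 for *Acta2*, 27.3 ± 28.2 for *Acta1* and 0.278 ± 0.0370 for *Actg2*.

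In YAP6SA OE CMs *Acta2* and *Actb* changed places, at 641 ± 97.7 and 564 ± 44.0 RPKM, and their libraries overlapped. The other levels were 3185 ± 19.0 for *Actc1*, 970 ± 39.7 for *Actg1* and 88.8 ± 34.2 for *Acta1*. In YAP5SA OE CMs *Acta2* was second at 727 ± 158 RPKM, and it could not be separated from *Actb* at 665 ± 3.51 or *Actg1* at 602 ± 188. *Actc1* stood above them at 2037 ± 742, and *Acta1* below them at 24.1 ± 23.1.

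**Figure D1:**
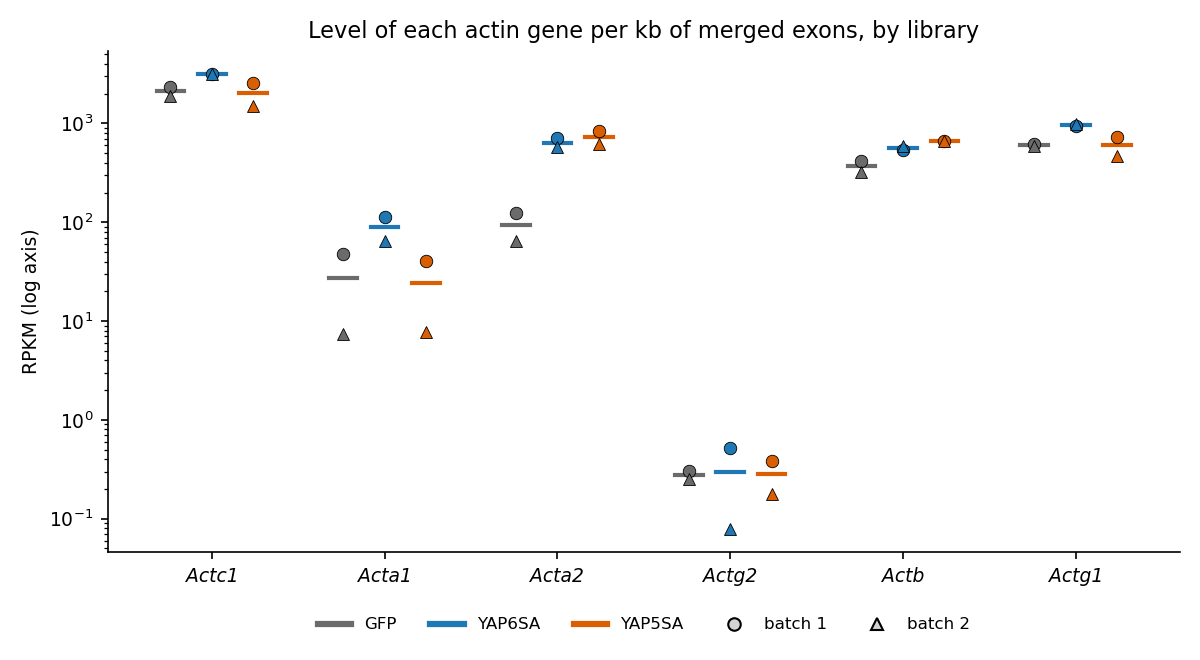
RPKM (log axis) of each actin gene in the GFP (grey), YAP6SA (blue) and YAP5SA (orange) libraries, with batch 1 as circles, batch 2 as triangles and the group mean as a bar. *Acta2* sits at 64.5 and 124 RPKM in the GFP libraries and at 572 to 839 RPKM in the other 4, whereas *Actg2* is below 1 RPKM in all 6.

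*Actc1*, the main actin of the cardiac sarcomere, was among the most abundant transcripts of these nuclei. Among the 13320 tested genes with a length it ranked 5 and 9 with GFP, 3 and 5 with YAP6SA, and 4 and 8 with YAP5SA. Its level was 2360 and 1885 RPKM with GFP, 3172 and 3199 with YAP6SA, and 2562 and 1513 with YAP5SA. Both YAP6SA libraries lay above all others, and the YAP5SA libraries lay on either side of the GFP libraries.

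The log2 fold change of *Actc1* against GFP was 0.61 in YAP6SA OE CMs (95% interval 0.05 to 1.16, quasi-likelihood FDR 0.804) and -0.09 with YAP5SA (-0.64 to 0.47, FDR 0.836). Between the variants it was -0.69 in YAP5SA against YAP6SA (-1.25 to -0.13, FDR 0.0926). None of these passed. The batches gave -0.31 and -1.08 for the latter, and without YAP5SA replicate 1 it was -0.99 and passed (FDR 0.000353), whereas without YAP5SA replicate 2 it was -0.38 (FDR 0.222) and without YAP6SA replicate 2 it was -0.41 (FDR 0.792).

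*Acta1*, the actin of skeletal muscle that neonatal CMs also express, varied most within groups among the tested members. It had 1380 and 173 counts with GFP, 3412 and 1636 with YAP6SA, and 937 and 214 with YAP5SA. These correspond to 47.2 and 7.35 RPKM with GFP, 113 and 64.6 with YAP6SA, and 40.4 and 7.81 with YAP5SA. The YAP6SA libraries were the highest and did not overlap the rest, the YAP5SA and GFP libraries overlapped, and batch 2 was the lower library in every group.

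The batch term for *Acta1* was -1.92 on the log2 scale (SE 0.30, edgeR quasi-likelihood FDR 0.0493), a difference between batches that 0.203% of all genes tested showed, and it missed the threshold with DESeq2's size factors. Between the variants *Acta1* was lower with YAP5SA, with a log2 fold change of -2.33 (SE 0.37, quasi-likelihood FDR 0.00359), and by -1.48 and -3.04 in the batches. Without the batch as a block it was -1.89 and did not pass (FDR 0.178).

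Against GFP, the log2 fold change of *Acta1* was 2.21 in YAP6SA OE CMs (95% interval 1.39 to 3.04, quasi-likelihood FDR 0.156) and did not pass, and the batches gave 1.26 and 3.12. It passed without GFP replicate 1 (2.80, FDR 0.00888), without YAP6SA replicate 1 (3.05, FDR 0.000153), without YAP5SA replicate 1 (2.10, FDR 0.000215), without YAP5SA replicate 2 (2.10, FDR 0.000161), and in a fit of the 4 GFP and YAP6SA libraries alone (2.11, FDR 5.6e-06). It did not pass without GFP replicate 2 (1.67, FDR 0.228) or YAP6SA replicate 2 (1.33, FDR 0.0614). In YAP5SA OE CMs it was -0.12 (-0.91 to 0.68, FDR 0.845), and its sign was positive without GFP replicate 1 (0.58) or YAP5SA replicate 2 (0.16).

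Skeletal muscle markers were few beside *Acta1*. Of 14, between 5 and 9 were at 0 in a library, among them the myogenic factors *Myod1* and *Pax7* and the fast myosin *Myh4* in all 6. A further myogenic factor, *Myog*, had 0 counts with GFP and YAP6SA and 19 and 52 with YAP5SA. The summed level of the 14 was 70.8 and 82.9 CPM with GFP, 69.2 and 74.2 with YAP6SA, and 84.3 and 124 with YAP5SA. *Tnnt1*, a slow skeletal troponin, supplied most of the GFP and YAP6SA sums, at 66.0 and 77.5 CPM with GFP and 62.6 and 68.4 with YAP6SA, and it was lower with YAP5SA at 43.7 and 30.6 CPM (log2 fold change -0.96, quasi-likelihood FDR 0.00896).

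*Myh1* and *Myh2*, fast myosin heavy chains, had 0 counts with GFP and YAP6SA and 127 to 1041 with YAP5SA, whose *Acta1* levels overlapped those of GFP.

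*Acta2*, the actin of smooth muscle and of the early heart tube, rose in both groups. It had 5171 and 2170 counts with GFP, 30644 and 20711 with YAP6SA, and 27812 and 24128 with YAP5SA. The levels were 124 and 64.5 RPKM in GFP, 710 and 572 in YAP6SA, and 839 and 616 in YAP5SA, so that neither variant overlapped GFP while the variants overlapped each other. Its rank by RPKM was 212 and 591 with GFP, 21 and 34 with YAP6SA, and 16 and 23 with YAP5SA.

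The log2 fold change of *Acta2* in YAP6SA OE CMs was 2.83 (SE 0.22, quasi-likelihood FDR 0.00222), a 7.09-fold rise, with 2.52 and 3.15 in batches 1 and 2. *Acta2* was the 1 member of the 5 tested that passed in this comparison, in which 0.0450% of all genes tested were called higher. The 5 members tested all lay higher in both YAP6SA libraries than in both GFP libraries, as did 17.3% of all genes tested, and all 5 had an unadjusted p under 0.05, as did 5.93%. Without the batch as a block, *Acta2* kept its size but did not pass (2.77, FDR 0.112).

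With YAP5SA *Acta2* rose 7.98-fold, a log2 fold change of 3.0 (SE 0.22, quasi-likelihood FDR 7.97e-05), and the batches gave 2.76 and 3.25. It was 1 of the 2 members called higher, beside *Actb*, where 12.8% of all genes tested were, and 0 members were called lower, where 9.18% were. The same 2 members lay higher in both YAP5SA than in both GFP libraries, as did 31.2% of all genes tested, and 0 lay lower, as did 29.7%. Both comparisons share the GFP libraries. Tested directly, YAP5SA differed from YAP6SA by 0.17 (95% interval -0.29 to 0.63, FDR 0.620), an interval that does not show equal levels.

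Markers of smooth muscle and mural cells, which also express *Acta2*, were measured beside it. All 12 had counts in every library, and their summed level was 1226 and 1320 CPM with GFP, 1224 and 1424 with YAP6SA, and 1021 and 833 with YAP5SA. Most of this was smoothelin, *Smtn*, at 914 and 1081 CPM with GFP, 852 and 1135 with YAP6SA, and 651 and 477 with YAP5SA. The sum therefore mostly follows this 1 gene and does not describe the other markers. With YAP5SA 3 of the 10 tested markers were called higher and 1, *Smtn*, lower, beside 12.8% and 9.18% of all genes tested. Among the 10 that could be tested, 0 passed in YAP6SA OE CMs by quasi-likelihood or DESeq2 and for 2 the unadjusted p was under 0.05 (beside 5.93% of all genes), with a median log2 fold change of 0.27 against a median of 0.00 over all genes tested.

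*Myh11*, the smooth muscle myosin heavy chain, was at 14.2 and 6.07 CPM in the GFP libraries and 14.0 and 7.09 in the YAP6SA libraries, and its log2 fold change there was 0.08 (95% interval -0.53 to 0.69). With YAP6SA 9 of the 10 markers had a value above 0, as did 6697 of the 13323 genes tested. The highest were *Cnn1* at 1.18 (0.09 to 2.26, quasi-likelihood FDR 0.804) and *Rgs5*, a pericyte gene named after its values were seen, at 0.85 (0.33 to 1.38, FDR 0.504). In YAP5SA OE CMs *Myh11* was at 21.3 and 16.5 CPM and rose by 1.00 on the log2 scale (quasi-likelihood FDR 0.0274). The actin-binding *Cnn1* (1.70, FDR 0.0322) and the adhesion molecule *Mcam* (1.30, FDR 0.00258) also rose, and *Smtn* fell by 0.81 (FDR 0.0291). Without the batch as a block *Myh11* (0.89, FDR 0.186) and *Cnn1* (1.58, FDR 0.127) did not pass. *Tagln* was singled out after its values were seen because it is a defining smooth muscle gene. It had 5 and 1 counts with GFP, 16 and 5 with YAP6SA, and 18 and 8 with YAP5SA, too few to test. The other marker too low to test, *Lmod1*, had 17 and 5 counts with GFP, fewer with YAP6SA at 6 and 4, and 38 and 20 with YAP5SA. The part of these cells in the *Acta2* values was not tested.

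**Figure D2:**
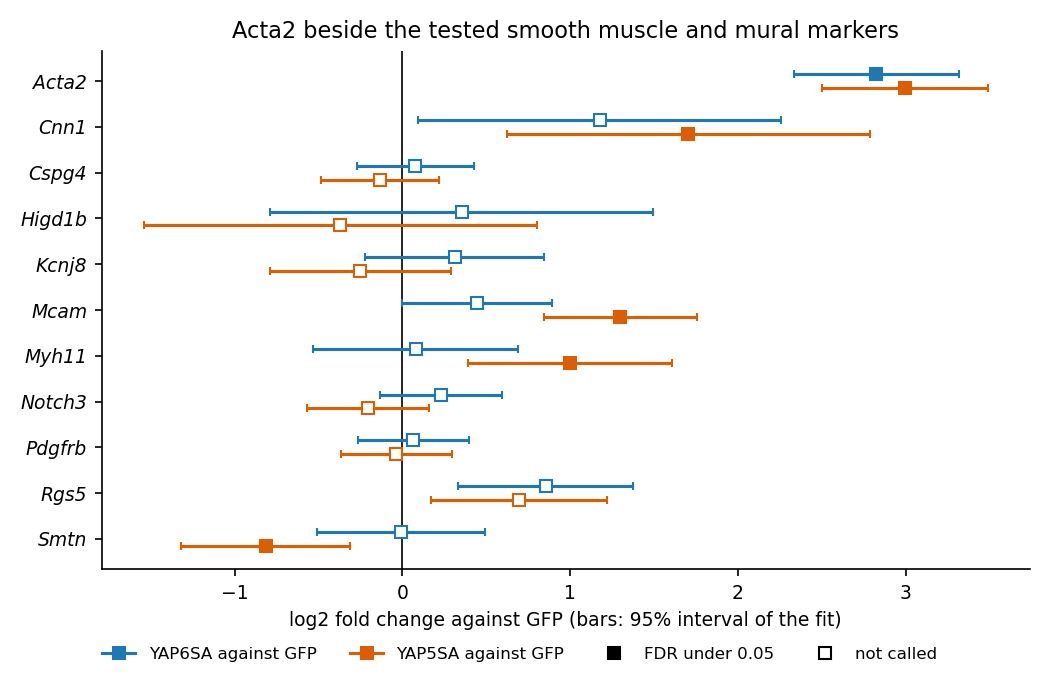
Log2 fold change against GFP of *Acta2* and of the 10 tested smooth muscle and mural markers in YAP6SA (blue) and YAP5SA (orange) OE CMs, with 95% intervals and filled squares for an FDR under 0.05. *Acta2* lies at 2.83 and 3.0, and the markers lie between -0.81 and 1.70.

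*Actg2*, the enteric smooth muscle actin, had 9 and 6 counts with GFP, 16 and 2 with YAP6SA, and 9 and 5 with YAP5SA. It did not pass the filter on low counts, and the YAP6SA libraries alone spanned the range of all the others. A change was not detectable at this depth, and 2 counts lie under the limit of 3 that a count of 0 would allow, which covers counting error only.

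*Actb*, the beta-actin of the cytoskeleton, was at 415 and 323 RPKM with GFP, 533 and 595 with YAP6SA, and 663 and 668 with YAP5SA. The 3 groups did not overlap, in that order. *Actb* rose in YAP5SA OE CMs by a log2 fold change of 0.86 (SE 0.20, quasi-likelihood FDR 0.0161), and the batches gave 0.68 and 1.05.

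This call was near the threshold. *Actb* did not pass without GFP replicate 2 (0.64, quasi-likelihood FDR 0.273), and it lay just outside without YAP6SA replicate 1 (0.86, FDR 0.0522), without YAP6SA replicate 2 (0.86, FDR 0.0523) and in a fit of the 4 GFP and YAP5SA libraries (0.86, FDR 0.0505). In YAP6SA OE CMs the log2 fold change of *Actb* was 0.62 (95% interval 0.16 to 1.07, FDR 0.687). Between the variants it was 0.24 (-0.21 to 0.69, FDR 0.469).

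*Actg1*, the cytoplasmic gamma-actin, was at 625 and 594 RPKM with GFP, 942 and 998 with YAP6SA, and 735 and 469 with YAP5SA. As for *Actc1*, both YAP6SA libraries were above all others, and the YAP5SA libraries lay on either side of GFP. Its log2 fold change in YAP6SA OE CMs was 0.68 (95% interval 0.17 to 1.19, quasi-likelihood FDR 0.693).

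With YAP5SA the log2 fold change of *Actg1* from GFP was -0.04 (95% interval -0.55 to 0.47, quasi-likelihood FDR 0.927). Between the variants it was -0.72 (-1.23 to -0.20, FDR 0.0643), with -0.36 and -1.09 in the batches, and it passed without YAP5SA replicate 1 (-1.04, FDR 0.000134), whereas it was -0.38 without YAP5SA replicate 2 (FDR 0.190) and -0.49 without YAP6SA replicate 2 (FDR 0.673). In this comparison *Acta1* was the 1 member called lower, where 5.68% of all genes tested were, and *Acta1*, *Actc1* and *Actg1* lay lower in both YAP5SA libraries, as did 28.9% of all genes tested. These 3 had an unadjusted p under 0.05, as did 30.8%, and *Actb* lay higher in both, as did 28.6%.

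**Figure D3:**
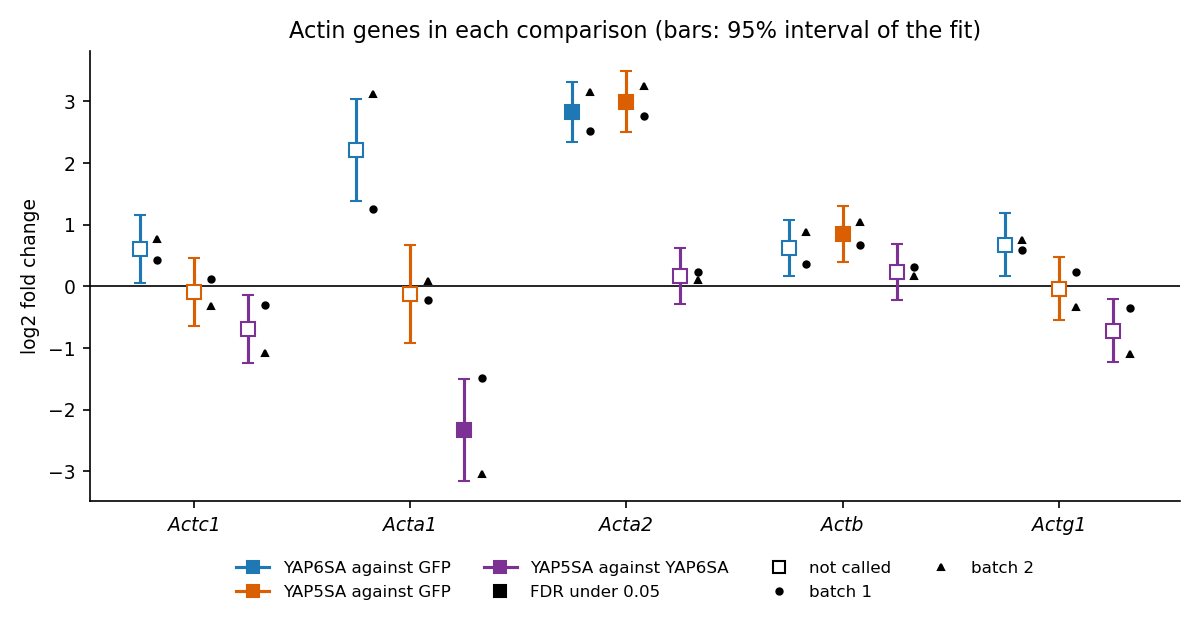
Log2 fold change of the 5 tested actin genes in the 3 comparisons, with the 95% interval of the fit, filled squares for an FDR under 0.05, and small symbols for the difference within each batch. *Acta2* is filled at 2.83 and 3.0, *Actb* at 0.86 in YAP5SA against GFP, and *Acta1* at -2.33 in YAP5SA against YAP6SA.

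The number of YAP6SA calls depended on which libraries entered the fit. With the YAP5SA libraries in the fit 1 member passed against GFP, and in a fit of the 4 GFP and YAP6SA libraries all 5 tested members passed, with log2 fold changes of 0.60 for *Actc1* (quasi-likelihood FDR 0.0114), 0.63 for *Actb* (FDR 0.0114) and 0.68 for *Actg1* (FDR 0.00266). Over all 13323 genes tested, 198 were called higher and 78 lower in the 4-library fit, beside 6 and 0 in the fit of all 6 libraries. The rise in calls was thus not particular to the actin genes. The fold changes of the members moved by less than their SE. Leaving out YAP5SA replicate 1 or YAP5SA replicate 2 likewise gave 5. In a joint test of any difference among the 3 groups, 3 members passed where 17.6% of all genes tested did, *Acta2* (quasi-likelihood FDR 9.6e-05), *Acta1* (FDR 0.00252) and *Actb* (FDR 0.0383), and all 5 had an unadjusted p under 0.05, as did 32.4%.

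The reads on the 6 genes together made up 0.701% and 0.529% of the gene counts with GFP, 1.08% and 1.04% with YAP6SA, and 1.01% and 0.711% with YAP5SA. Both YAP6SA libraries were above both GFP libraries, and the lower YAP5SA library lay just above the higher GFP library. In TMM-scaled units the sums were 6937 and 5647 CPM in GFP, 10797 and 10778 in YAP6SA, and 9780 and 6848 in YAP5SA, and on that scale YAP5SA overlapped GFP.

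A share of the actin counts within a library does not depend on the scaling between libraries. *Actc1* held 55.0% and 54.0% of the actin counts with GFP, 47.5% and 48.0% with YAP6SA, and 42.4% and 35.7% with YAP5SA. *Acta2* held 3.92% and 2.51%, then 14.4% and 11.7%, then 18.8% and 19.7%. For both genes the 3 groups did not overlap, with the share of *Actc1* falling in order as that of *Acta2* climbed. The shares of a library have a fixed sum, so a larger share of *Acta2* leaves less for the other genes. The level of *Actc1* did not fall with YAP6SA, at 3172 and 3199 RPKM beside 2360 and 1885 with GFP.

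*Actb* held 16.0% and 15.3% of the actin counts with GFP, 13.2% and 14.8% with YAP6SA, and 18.2% and 26.1% with YAP5SA. *Actg1* held 23.9% and 28.0%, then 23.2% and 24.6%, then 20.0% and 18.2%. *Acta1* held 1.05% and 0.200%, then 1.61% and 0.920%, then 0.635% and 0.175%, and *Actg2* at most 0.00754%. The exact 95% intervals of single shares are narrow, such as 19.5% to 20.0% for *Acta2* in the YAP5SA library of batch 2, and they cover counting error only.

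Per kb of exon, *Actc1* made up 65.8% ± 0.344 of actin transcripts with GFP, 58.5% ± 0.666 with YAP6SA and 49.6% ± 4.75 with YAP5SA. *Acta2* made up 2.86% ± 0.863, 11.8% ± 1.73 and 18.1% ± 1.04. The ratio of *Actc1* to *Acta2* in RPKM was 19.1 and 29.2 with GFP, 4.47 and 5.59 with YAP6SA, and 3.05 and 2.46 with YAP5SA.

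**Figure D4:**
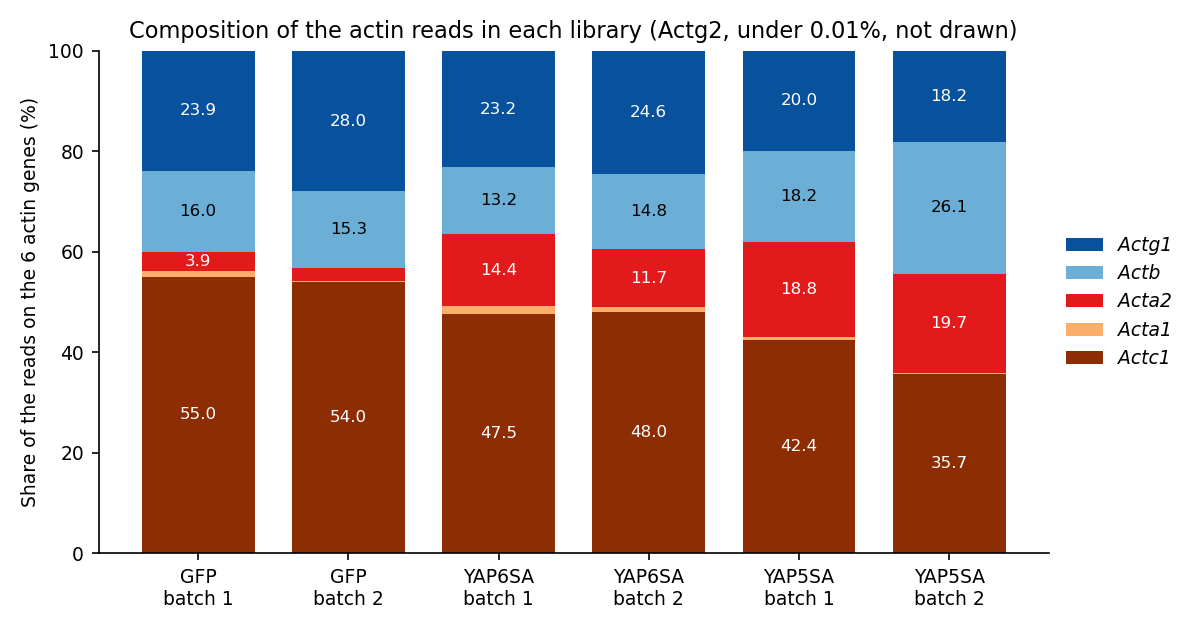
Share (%) of the reads on the 6 actin genes taken by each gene in each library, as stacked bars that sum to 100, with *Actg2* too low to draw. The red block of *Acta2* grows from 3.92% and 2.51% in GFP to 14.4% and 11.7% in YAP6SA and 18.8% and 19.7% in YAP5SA, while the brown block of *Actc1* shrinks.

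The reads of the cytoplasmic actins *Actb* and *Actg1* were also summed. Their share was 40.0% and 43.3% of the actin counts with GFP, 36.4% and 39.4% with YAP6SA, and 38.1% and 44.3% with YAP5SA. The difference from GFP was -3.71 percentage points in YAP6SA (two-sided exact permutation p = 0.333) and -0.39 in YAP5SA (exact permutation p = 1), and it was 3.33 between the variants (exact permutation p = 0.667). Within batches the difference was -3.57 and -3.86 points for YAP6SA against GFP, -1.84 and 1.06 for YAP5SA against GFP, and 1.73 and 4.92 between the variants, so that the batches had 1 sign in all but the YAP5SA comparison with GFP. The test does not use the batch pairs, and with 2 against 2 libraries the smallest p this test can give is 0.333, and per kb of exon the YAP5SA difference from GFP turned to 1.30.

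The ratio of *Actg1* to *Actb* in RPKM was 1.51 and 1.84 with GFP, 1.77 and 1.68 with YAP6SA, and 1.11 and 0.702 with YAP5SA. The GFP values spanned the YAP6SA values, the YAP5SA libraries were below the other 4, and the ratio was under 1 in 1 of them. Since 51% of the 100-base stretches of *Actg1* and 1.10% of those of *Actb* occur in other genes, *Actg1* may be undercounted. These ratios thus do not show which of the 2 was the more abundant, and the part of such reads was not tested.

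The promoters of 4 members, *Actc1*, *Acta1*, *Actg1* and *Acta2*, were matched in the RefSeq table of GRCm38.p6, which gives 250 bases before and 50 after each start. They were searched on both strands for the CArG box bound by SRF and for CATTCC, the core of the MCAT element bound by TEAD factors. A CArG box was found in 1.63% of the 32851 promoter windows of the table, and CATTCC in 14.7%. The CArG boxes, in capitals, lay 47 bases before the RefSeq start in *Actc1*, 73 in *Acta1* and 90 in *Actg1*, and are shown because these members are described above by their levels.
Actc1, chr2:114052903-114052932, minus strand: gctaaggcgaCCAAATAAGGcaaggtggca
Acta1, chr8:123894829-123894858, minus strand: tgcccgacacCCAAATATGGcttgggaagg
Actg1, chr11:120348566-120348595, minus strand: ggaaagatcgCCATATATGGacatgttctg
In the *Acta2* window a form with 1 other base among the central A and T, chosen after the sequences were seen, lay 84 and 34 bases before the start, and 9.98% of all windows hold a box with at most 1 such base, exact boxes included. Beside their exact boxes, the *Actc1* window held 3 of the inexact form and the *Acta1* window 2.
Acta2, chr19:34255438-34255467, minus strand: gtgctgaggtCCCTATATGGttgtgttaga
CATTCC lay 46 bases before the start of *Acta1*, and on the opposite strand, so reading GGAATG, 146 bases before that of *Acta2*.
Acta1, chr8:123894804-123894833, minus strand: gaagggcagcaaCATTCCttcggggcggtg
Acta2, chr19:34255502-34255531, minus strand: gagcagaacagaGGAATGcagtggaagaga
In GENCODE M21, whose starts lie further upstream for *Actc1* and *Acta2*, the printed *Actc1* stretch is intronic and the *Acta2* stretches are exonic, whereas those of *Acta1* and *Actg1* lie upstream of the gene. Each match describes the letters of the window and no binding was measured.

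Genes that act on actin were taken from 6 lists. SRF and its cofactors held 7 genes, of which 1, *Srf*, was called higher with YAP6SA and with YAP5SA, beside 0.0450% and 12.8% of all genes tested. For 7 genes the YAP5SA share is near the background. *Srf* was at 63.3 and 59.4 CPM with GFP, 159 and 146 with YAP6SA, and 143 and 93.3 with YAP5SA. It lay higher in both YAP6SA than in both GFP libraries, as did 17.3% of all genes tested, and likewise with YAP5SA, as did 31.2%. With YAP6SA it rose by 1.31 on the log2 scale (SE 0.17, quasi-likelihood FDR 0.0424) and with YAP5SA by 0.92 (SE 0.17, FDR 0.00544). With a library left out the YAP6SA value ran from 1.18 to 1.45 and passed in 2 of 6 fits, those without YAP5SA replicate 1 or 2, and not without any of the GFP or YAP6SA libraries. Without the batch as a block it was of the same size and did not pass (FDR 0.361). The other 6 genes, among them the myocardin-related cofactors, passed in no comparison.

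Of 13 genes that bind or recycle actin monomers, 0 passed in YAP6SA OE CMs by quasi-likelihood, 1 by DESeq2 and 6 in the 4-library fit, and for 6 the unadjusted p was under 0.05, beside 5.93% of all genes. The 4-library fit called 198 of all 13323 genes higher and 78 lower. In YAP5SA OE CMs 5 were higher and 2 lower, where 12.8% and 9.18% of all genes tested were. The thymosins *Tmsb4x* and *Tmsb10*, which sequester monomers, rose by log2 fold changes of 1.67 and 1.76 (quasi-likelihood FDR 0.00293 and 0.00344). *Tmsb4x* was at 89.1 and 92.5 CPM in the GFP libraries and at 197 and 397 in the YAP5SA libraries, with the higher value in batch 2. The severing cofilins *Cfl1* (0.97, FDR 0.00791) and *Cfl2* (0.84, FDR 0.00648) and their helper *Wdr1* (0.83, FDR 0.0047) also rose, and *Pfn2*, a profilin, and *Twf2*, a twinfilin, were lower, with -0.86 (FDR 0.0409) and -1.17 (FDR 0.00131).

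The folding of actin needs the chaperonin CCT and prefoldin. Of their 14 genes 0 passed in YAP6SA OE CMs by quasi-likelihood or DESeq2, with 0 at an unadjusted p under 0.05 beside 5.93% of all genes, and 2 were higher in YAP5SA OE CMs, *Cct4* with 0.48 (quasi-likelihood FDR 0.0423) and *Cct5* with 0.73 (FDR 0.013), beside 12.8% of all genes tested, which for 14 genes is a share near the background. The median log2 fold change of the list was 0.04 and 0.43, beside 0.00 over all genes tested in either comparison. With YAP5SA 13 of the 14 folding genes had a log2 fold change above 0, beside 6627 of the 13323 genes tested. For 8 of the 14 the unadjusted p was under 0.05 there, beside 36.4% of all genes. Of 7 enzymes that modify actin, 4 were lower in YAP5SA OE CMs, beside 9.18% of all genes tested, namely the actin acetyltransferase *Naa80* (-0.75, FDR 0.0108), the oxidase *Mical3* (-0.72, FDR 0.0154) and the methionine sulfoxide reductases *Msrb1* (-0.66, FDR 0.0421) and *Msrb2* (-1.14, FDR 0.00296). In YAP6SA OE CMs 0 passed by quasi-likelihood or DESeq2, and 1 had an unadjusted p under 0.05, beside 5.93% of all genes.

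Among 14 partners of the sarcomeric thin filament, 0 passed in YAP6SA OE CMs by quasi-likelihood and 1 by DESeq2, with 1 at an unadjusted p under 0.05 beside 5.93% of all genes. In YAP5SA OE CMs 4 were higher and 3 lower, beside 12.8% and 9.18%. The 4 were the tropomyosins, which lie along actin filaments, *Tpm1* (0.84, quasi-likelihood FDR 0.0186), *Tpm2* (1.04, FDR 0.0453), *Tpm3* (1.37, FDR 0.00204) and *Tpm4* (2.03, FDR 0.00162). Counts per gene do not tell their sarcomeric from their cytoskeletal products. The 3 lower genes were nebulette, *Nebl* (-0.90, FDR 0.0184), and the leiomodins *Lmod2* (-0.61, FDR 0.0197) and *Lmod3* (-0.78, FDR 0.0147), which nucleate or lengthen thin filaments. Of 10 tested actin-related proteins, which include subunits of the Arp2/3 complex, 0 passed in any comparison by quasi-likelihood or DESeq2, and against GFP the unadjusted p was under 0.05 for 0 with YAP6SA and 2 with YAP5SA, beside 5.93% and 36.4% of all genes.

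The list counts with YAP5SA rested partly on single libraries, and so did the number called over all genes tested. That number also fell without GFP replicate 2 or YAP5SA replicate 2 and rose without YAP5SA replicate 1, so the shifts were not particular to these lists. Without GFP replicate 2 the calls fell from 7 to 3 for monomer handling, from 7 to 2 for thin filament partners, from 4 to 1 for modifying enzymes and from 2 to 0 for folding. Without YAP5SA replicate 1 they were 8, 11, 4 and 6, and without YAP5SA replicate 2 they were 6, 3, 3 and 1. Of the list genes named above for YAP5SA, *Cct4*, *Pfn2*, *Msrb1*, *Tpm2* and *Lmod2*, and the CM marker *Ryr2*, did not pass without the batch as a block (FDR 0.0639 to 0.272).

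The genes most like each member were found from the mean-centred log2 CPM over the 6 libraries, as the smallest root mean square (RMS) difference among 9910 genes whose mean log2 CPM was 3 or more. For *Actc1* they were *1700086O06Rik* (RMS 0.0807) and its own relative *Actg1* (0.0875), and for *Actg1* they were *Wfdc1* (0.0784) and *1700086O06Rik* (0.0816), where *Actc1* and *Actg1* themselves varied with an RMS of 0.388 and 0.380. For *Actb* they were *BC024978* (0.100) and *Cyp20a1* (0.106), against 0.381 for *Actb* itself. The nearest to *Acta2* were farther away, *Atf3* (0.551) and *Myl9* (0.613) against 1.41 for *Acta2* itself, and likewise *Bvht* (0.705) and *Pdk4* (0.807) for *Acta1* against 1.49.

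These nearest genes were picked by their likeness over the same 6 libraries, so their changes follow from that choice and are no separate evidence. *Atf3*, the nearest to *Acta2*, had a log2 fold change of 1.76 with YAP6SA (quasi-likelihood FDR 0.328) and 1.86 with YAP5SA (FDR 0.0112). *Myl9*, a smooth muscle myosin light chain, was at 45.7 and 18.5 CPM with GFP, 123 and 98.8 with YAP6SA, and 103 and 70.2 with YAP5SA. On the log2 scale it rose by 1.89 with YAP6SA (quasi-likelihood FDR 0.025) and by 1.51 with YAP5SA (FDR 0.00186), and without the batch as a block the YAP6SA value was 1.79 and did not pass (FDR 0.981). *Bvht*, a long noncoding RNA of cardiac development, was at 14.0 and 6.86 CPM with GFP, 32.5 and 19.2 with YAP6SA, and 21.1 and 6.22 with YAP5SA. It was lower with YAP5SA than with YAP6SA (-1.08, FDR 0.0268), and without the block it did not pass (-0.92, FDR 0.300).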

How the data were processed

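Poly-A RNA of PCM-1-bound nuclei was sequenced from non-directional libraries. The authors mapped reads with STAR to mm10 with Ensembl 94 (versions of the tools not given in the sources used here) and deposited whole-number counts per gene, without normalization. Reads outside genes (9.43% to 9.84%), ambiguous (5.79% to 6.31%), mapping to several places (2.90% to 4.19%) or unmapped (3.03% to 3.63%) stand in 4 rows that name no gene and were left out. Names came from GENCODE M21 and an ID table for 54495 genes, and 37 had none.

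A gene entered the tests if 1 group or more had a median log2 CPM above 1, which held for 13323, and these were fitted with edgeR 4.0.16 in R 4.3.3 (TMM scaling, quasi-likelihood test, terms for group and batch). The batch pairs the libraries by the labels, and deviations of libraries in 1 batch correlated at 0.368, 0.0985 and 0.175 across genes for the 3 pairs of groups. No library was a copy, since replicates differed by 30.9 to 49.4 times the sampling noise. In simulated counts for YAP6SA against GFP over 13017 genes, 95 of 100 4-fold and 63 of 100 2-fold changes were recovered, with 12 false calls. The simulation changed the YAP6SA libraries only and held no batch effect and no YAP5SA change. It therefore checks the code and does not give the power of the real comparison.

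The alternatives were DESeq2's size factors, no filter, a minimum of 10 counts in each library, the likelihood ratio test of edgeR, a DESeq2 1.42.0 fit, a limma-voom fit (limma 3.58.1), no batch term, the 4 libraries compared and each library left out. Those for the gene lists, the joint test of the groups and the batch test were added after the data were seen. Shares were computed from counts, with exact Clopper-Pearson intervals and exact permutation tests over libraries (scipy 1.17.1). The 6 members and the lists were chosen with earlier results of these data known. Besides the members, the genes named were taken from the fixed lists among those that passed in a comparison (not all of them), markers given by their levels, and the 2 nearest genes per member. Coding sequences are from GENCODE M21 and promoters from RefSeq.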

Additional observations from a re-analysis of the deposited data

How the results depend on the processing

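The log2 fold change of *Acta2* passed in 7 of 8 other fits for YAP6SA (2.77 to 2.85) and in 8 of 8 for YAP5SA (2.95 to 3.01), and in all 6 fits with a library left out (2.55 to 3.11 and 2.73 to 3.30). The number of actin genes called in YAP6SA against GFP was 1 as reported, 5 with no filter or in the 4-library fit, 2 with edgeR's likelihood ratio test, 0 with no replicate block, and 1 to 5 with a library left out. The number in YAP5SA against GFP was 2, 1 in the 4-library fit, and 1 to 2 with a library left out. For YAP5SA against YAP6SA it was 1, 3 with no filter, with the likelihood ratio test or with DESeq2, 2 with limma-voom, 0 with no replicate block, and 1 to 3 with a library left out. The block changed no other actin call between pairs of groups. For YAP6SA against GFP the calls over all genes moved as well, from 6 higher and 0 lower to 109 and 36 with no filter and 198 and 78 in the 4-library fit. In a joint test of the groups 3 members passed, 5 with no filter or the likelihood ratio test, 1 without the block, and 2 to 5 with a library left out. Between batches 1 passed, 0 with DESeq2's size factors, 2 with no filter, and 1 to 2 with a library left out. The fold change in YAP5SA against GFP turned to 0.58 and 0.16 for *Acta1* without GFP replicate 1 and without YAP5SA replicate 2, to 0.06 and 0.29 for *Actg1* without GFP replicate 2 and without YAP5SA replicate 2, and to 0.21 for *Actc1* without YAP5SA replicate 2. Over left-out libraries these ran from -0.57 to 0.58, from -0.37 to 0.29 and from -0.39 to 0.21, and *Acta2* in YAP5SA against YAP6SA from -0.011, without YAP6SA replicate 1, to 0.37. The difference of the cytoplasmic share ran over left-out libraries from -5.36 to -2.07 points in YAP6SA, from -3.48 to 2.71 in YAP5SA and from 0.23 to 6.42 between the variants, and was 1.30 per kb in YAP5SA against GFP. Over left-out libraries the YAP5SA calls against GFP ran from 3 to 8 for monomer handling, 0 to 6 for folding, 1 to 4 for modifying enzymes and 2 to 11 for thin filament partners. The number called over all genes tested moved with the library left out as well. With the longest transcript in place of merged exons, the per-length share of *Actc1* in GFP was 61.2%. The causes were not tested. With 2 libraries per group, changes well over 2-fold may be missed where libraries of a group differ, as *Acta1* at 2.21 on the log2 scale did not pass in YAP6SA, and *Actg2* lies at the limit of the depth.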
